A study of Chlamydomonas reinhardtii with 20 samples.

Results

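Photosystem II splits water with light energy and feeds electrons into photosynthesis. Its core is assembled from chloroplast-encoded proteins together with nuclear-encoded subunits that are made in the cytosol and imported. PSBP1 is an extrinsic protein of the oxygen-evolving complex on the lumenal side, PSBR is a small lumenal subunit that helps to dock that complex, and PSBX is a small membrane-spanning subunit. PSB27 and PSB28 are not part of the finished complex. Both are assembly factors, known best from cyanobacteria, where each binds a photosystem II intermediate during assembly or repair and leaves before the complex is complete.

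The transcripts described here are nuclear-encoded photosystem II genes of the green alga Chlamydomonas reinhardtii, chosen by gene ID. Of 6 IDs, 5 were analysed among 17737 in all, namely Cre12.g550850 (PSBP1), Cre06.g261000 (PSBR), Cre02.g082750 (PSBX), Cre05.g243800 (PSB27) and Cre10.g440450 (PSB28). The sixth, Cre08.g372450 (PSBQ), is not analysed here. All 5 passed the filter on low values, which 13871 IDs passed. The selection of these IDs names the genes. The deposited values carry IDs only, so other genes are given by ID and no list of other photosynthesis genes by name was analysed, nor was the mutated HMOX1 gene.

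RNA was sequenced in 20 libraries, 2 labelled biological replicates in each of 10 groups. The strains were 4A+ (wild type), hmox1 (a mutant of heme oxygenase) and a pair of strains in which the mutant was complemented, called ho1C1 and ho1C2. Heme oxygenase opens the ring of heme to make the bilin biliverdin (BV). Every culture grew heterotrophically in darkness on acetate medium with methanol, the solvent of BV. The 4A+ and hmox1 groups were harvested after 4 h of white light, either with 0.1 mM BV or with 0 mM. Both complemented lines had no BV and were harvested in the dark, after 0.5 h and after 4 h of light. There is no dark or 0.5 h group of 4A+ or hmox1 and no BV group of the complemented lines, so light and BV were measured in different strains. The labels do not say what drives the restored gene, and each complemented line is a single strain.

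Values were read as RPKM, reads per kilobase of gene, scaled to the total of the library. That unit is inferred from the values, and comparisons of levels between genes rest on it. Replicate libraries correlated at 0.993 to 0.998 across genes, which are not independent replicates. The replicates of hmox1 without BV differed most from each other. Their median absolute difference per gene was 0.155 (log2), and that of the other pairs 0.0700 to 0.0886. The shallowest library was also one of this pair, replicate 2 (relative depth 0.612, read from the whole-read steps of low values), and the deepest was replicate 2 of ho1C1 at 4 h (2.03). Absolute depth is unknown, so no counting interval is given. Differences are on the log2(RPKM + 1) scale with standard errors (SE), tested with limma and Benjamini-Hochberg adjustment over all 13871 IDs. A gene is said to have risen or fallen only at a limma adjusted p under 0.05. Whether libraries overlap is given as a description, since its share over all genes was not computed. In bulk RNA, fewer cells with a transcript and less of it per cell cannot be told apart.

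The 3 subunit transcripts were abundant in every library, and those of the 2 assembly factors were lower, by a margin that was narrowest for PSB28 at 0.5 h of light. PSBR lay between 1853 and 5472 RPKM and ranked from 15 to 89 among all IDs of a library. PSBX lay between 888 and 3929 RPKM, at ranks 38 to 129, and PSBP1 between 783 and 2958 RPKM, at ranks 68 to 146. PSB27 lay between 199 and 412 RPKM, at ranks 258 to 396. PSB28 lay between 120.0 and 596 RPKM, at ranks 212 to 590. PSB28 varied most over the group means, by 4.47 times, and PSB27 least, by 1.99 times. The corresponding ratios were 3.87 for PSBX, 3.59 for PSBP1 and 2.86 for PSBR.

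**Figure D1:**
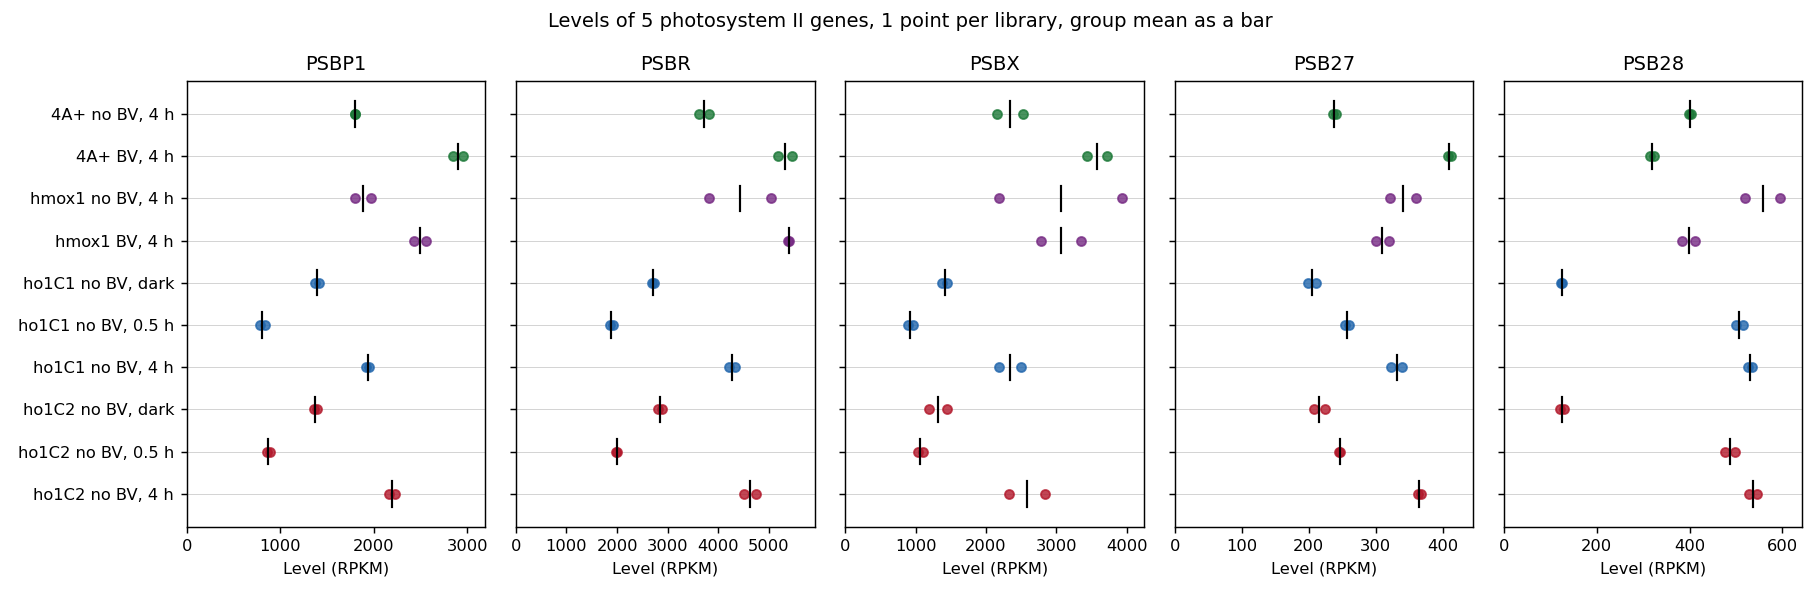
Level of each of the 5 genes in RPKM (horizontal axis, starting at 0, own scale for each gene) in the 10 groups of 2 libraries, with 1 point per library, a bar at the group mean and colours for the strains. PSBP1, PSBR and PSBX were lowest after 0.5 h of light, PSB28 was lowest in the dark at 125 RPKM in both lines, and the points of hmox1 without BV lie far apart for PSBX (3929 and 2191 RPKM).

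PSB28 rose about 4 times within 0.5 h of light in both complemented lines and then stayed near that level. In ho1C1 its level was 124 and 126 RPKM in the dark, 499.6 and 515 at 0.5 h, and 526 and 535 at 4 h. In ho1C2 it was 120.0 and 129.7 RPKM in the dark, 476 and 498 at 0.5 h, and 528 and 546 at 4 h. The dark libraries were far below all the others, and those at 4 h lay slightly above those at 0.5 h. At 0.5 h the rise was 4.07-fold in ho1C1 (log2 difference 2.02, SE 0.06, limma adjusted p = 9.38e-16) and 3.90-fold in ho1C2 (1.96, SE 0.06, adjusted p = 1.78e-15). Of all genes tested, 97.9% and 98.2% had a lower difference. From 0.5 h to 4 h the difference of PSB28 was 0.06 in ho1C1 (SE 0.06, adjusted p = 0.332, limma) and 0.14 in ho1C2 (SE 0.06, adjusted p = 0.0367). With median-ratio scaling it was -0.24 (adjusted p = 0.00378, limma) and -0.07 (adjusted p = 0.348), so the direction of this later step depends on the scaling. The small rise in ho1C2 also lost its call without either 4 h library or without 0.5 h replicate 1.

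The subunit transcripts took another course, with a lower level at 0.5 h and a higher one at 4 h. PSBP1 in ho1C1 was at 1418 and 1369.9 RPKM in the dark, 833 and 783 at 0.5 h, and 1947 and 1923 at 4 h. In ho1C2 its level was 1393 and 1360.4 RPKM in the dark, 889 and 854 at 0.5 h, and 2167 and 2228 at 4 h. The 3 times did not overlap in either line. At 0.5 h PSBP1 fell by 0.79 in ho1C1 (SE 0.05, adjusted p = 4.37e-11, limma) and by 0.66 in ho1C2 (SE 0.05, adjusted p = 6.22e-10), to 0.580 and 0.633 of the dark level. It was then above dark at 4 h by 0.47 in ho1C1 (SE 0.05, adjusted p = 8.73e-08, limma) and by 0.67 in ho1C2 (SE 0.05, adjusted p = 8.18e-10). The step from 0.5 h to 4 h was a 2.39-fold rise in ho1C1 and a 2.52-fold rise in ho1C2.

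PSBR, the docking subunit, followed the same order of times. Its level in ho1C1 was 2729 and 2693 RPKM in the dark, 1919 and 1853 at 0.5 h, and 4211 and 4341 at 4 h. In ho1C2 it was 2892 and 2805 RPKM in the dark, 2001 and 1985 at 0.5 h, and 4512 and 4757 at 4 h. The times were again fully apart in both lines. At 0.5 h PSBR fell by 0.52 in ho1C1 (SE 0.08, adjusted p = 2.04e-05, limma) and by 0.52 in ho1C2 (SE 0.08, adjusted p = 2.64e-05). At 4 h it was above dark by 0.66 (SE 0.08, adjusted p = 2.501e-06, limma) and 0.70 (SE 0.08, adjusted p = 1.35e-06).

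PSBX varied more between replicates than the other genes, with a median coefficient of variation of 10.1% over the groups against 2.28% to 2.57% for them. In ho1C1 its level was 1449 and 1372 RPKM in the dark, 959 and 888 at 0.5 h, and 2503 and 2192 at 4 h. In ho1C2 it was 1443 and 1196 RPKM in the dark, 1100.1 and 1031 at 0.5 h, and 2839.9 and 2331 at 4 h. The libraries of the 3 times did not overlap in either line, and those of ho1C2 at 4 h lay furthest apart. At 0.5 h PSBX fell by 0.61 in ho1C1 (SE 0.23, adjusted p = 0.0264, limma). The call was lost with quantile normalization (-0.36, adjusted p = 0.156, limma) and when any 1 of the 4 libraries was left out (-0.67 to -0.56). The shared SE includes the hmox1 pair without BV, where the coefficient of variation of PSBX was largest (40.2%). The call held without that pair (SE 0.13, adjusted p = 0.00157, limma) and in a fit of the compared groups alone (SE 0.05, adjusted p = 1.32e-06). In ho1C2 the difference was -0.30 (SE 0.23, adjusted p = 0.239, limma; 95% interval -0.80 to 0.20). At 4 h PSBX was above dark by 0.73 in ho1C1 (SE 0.23, adjusted p = 0.0132, limma) and by 0.97 in ho1C2 (SE 0.23, adjusted p = 0.00267). The ho1C1 call was lost without dark replicate 2 (0.69) or without 4 h replicate 1 (0.64). It held without the hmox1 pair lacking BV (adjusted p = 0.000592, limma) and in a fit of the compared groups alone (adjusted p = 1.70e-06).

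PSB27, the lumenal assembly factor, rose at each step. Its level in ho1C1 was 212 and 199 RPKM in the dark, 254 and 259.6 at 0.5 h, and 339 and 323 at 4 h. In ho1C2 it was 224 and 208 RPKM in the dark, 246 and 247 at 0.5 h, and 367 and 363 at 4 h. No library of a later time was as low as one of an earlier time. At 0.5 h PSB27 rose by 0.32 in ho1C1 (SE 0.06, adjusted p = 3.49e-05, limma) and by 0.19 in ho1C2 (SE 0.06, adjusted p = 0.00429). The rise in ho1C2 lost its call without dark replicate 2 (0.14) and with quantile normalization (0.04, adjusted p = 0.410, limma). At 4 h the rise from dark was 0.69 in ho1C1 (SE 0.06, adjusted p = 3.39e-09, limma) and 0.76 in ho1C2 (SE 0.06, adjusted p = 1.05e-09).

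**Figure D2:**
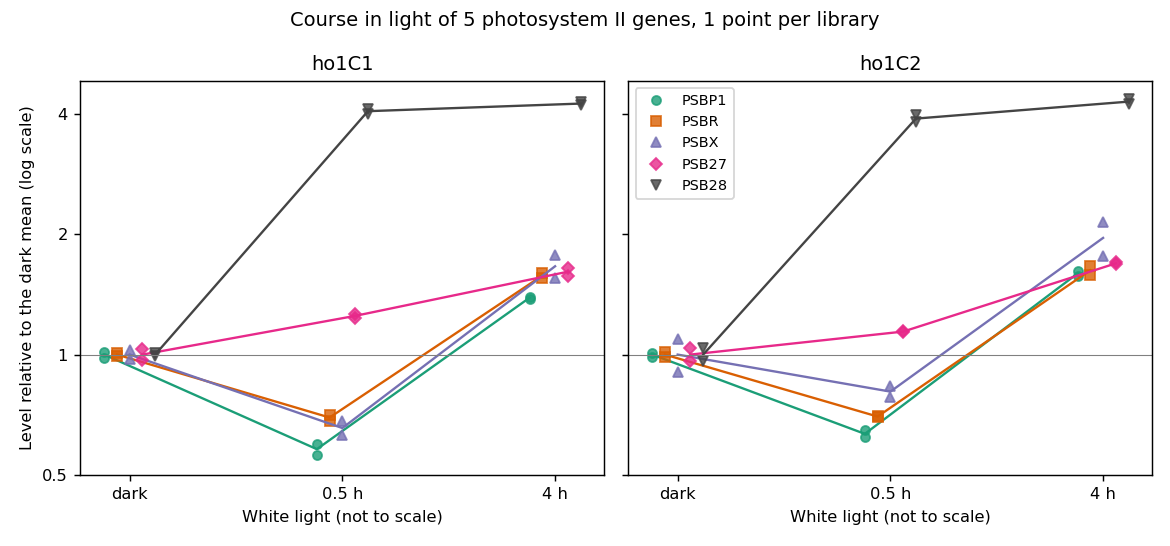
Level of each gene relative to its own dark mean (vertical axis, log scale) in darkness and at 0.5 h and 4 h of white light in ho1C1 (left) and ho1C2 (right), with 1 point per library and lines through the means of 2 libraries. At 0.5 h PSB28 stood at 4.07 and 3.90 times its dark level, PSBP1 at 0.580 and 0.633 times, and all 5 genes were above dark at 4 h.

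These counts stand against a wide response of all genes. At 0.5 h 2 of the 5 genes rose and 3 fell in ho1C1, where 21.7% of all tested genes rose and 59.5% fell. In ho1C2 2 rose and 2 fell, where 22.6% rose and 56.2% fell. The median difference of the 5 genes was -0.52 in ho1C1 and -0.30 in ho1C2, beside -0.38 and -0.31 over all genes tested, so the falls of PSBR and PSBX lay close to the median gene. Median-ratio scaling moved the median over all genes by 0.38 in ho1C1 and 0.32 in ho1C2. With it the genes that rose made up 39% and 38.4% and those that fell 38.2% and 37.3%. PSBP1 was then still lower at 0.5 h (-0.30, adjusted p = 8.70e-05, limma, in ho1C1 and -0.26, adjusted p = 0.000396, in ho1C2). PSBR was at -0.04 and -0.12 (adjusted p = 0.708 and 0.274, limma) and PSBX at -0.13 and 0.10 (adjusted p = 0.619 and 0.716), so their fall at 0.5 h depends on the scaling. The rises of PSB27 (0.80 and 0.59) and PSB28 (2.497 and 2.35) were larger with that scaling.

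At 4 h all 5 genes were above dark in both lines, against a background of 26% of tested genes above dark and 43.5% below it in ho1C1. In ho1C2 these shares were 22.6% and 45.6%. Their median difference was 0.69 in ho1C1 and 0.76 in ho1C2, beside -0.13 and -0.16 over all genes. All 10 of these rises also passed the test with median-ratio scaling, under which 35% and 31.7% of all genes were higher. Between 0.5 h and 4 h 4 of the 5 rose in ho1C1, where 49% of all genes rose and 24.4% fell, and all 5 rose in ho1C2, where 44.6% rose and 26.4% fell. PSBP1, PSBR and PSBX rose by 1.18 to 1.34 in this step over both lines, above 94.1% to 96.4% of all genes. With median-ratio scaling the rise of PSB27 in ho1C1 was lost for this step (0.07, adjusted p = 0.331, limma).

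No difference between the 2 lines in these responses was called by the test of the difference itself. None of the 5 genes was called for the 0.5 h response, where 1.03% of all genes were higher in ho1C2 and 0.678% lower (limma). For the 4 h response, where 1.54% were higher and 3.19% lower, none was called either. The lowest unadjusted p among the 5 genes was that of PSBP1 in both tests, 0.0802 for the 0.5 h response and 0.00895 for the 4 h response (limma). PSB28 had the narrowest result beside its size, with a difference of the 0.5 h response of -0.06 (95% interval -0.23 to 0.11) and of the 4 h response of 0.02 (-0.15 to 0.19). For PSBX the intervals were wide, -0.40 to 1.01 and -0.47 to 0.94. For PSBP1 the estimated difference of the 4 h response was 0.20, ho1C2 minus ho1C1, and was not called (unadjusted 95% interval 0.06 to 0.35, adjusted p = 0.12, limma). That difference was called when each group was weighted by its own spread (adjusted p = 0.0318, limma) or when the hmox1 pair without BV was left out of the fit (adjusted p = 0.0288).

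Added BV split the set in the wild type after 4 h of light, with 4 genes higher and PSB28 lower. PSBP1 in 4A+ was at 1806 and 1805 RPKM without BV and at 2958 and 2847 with it, a 1.61-fold rise (0.68, SE 0.05, adjusted p = 7.58e-10, limma). PSBR was at 3826 and 3629.5 RPKM without BV and 5472 and 5192 with it, a 1.43-fold rise (0.52, SE 0.08, adjusted p = 4.76e-05, limma). PSB27 was at 237 and 240.3 RPKM without BV and 412 and 407 with it, a 1.72-fold rise (0.78, SE 0.06, adjusted p = 8.18e-10, limma). In all 3 genes both BV libraries lay well above both libraries without it. PSBX was at 2521 and 2163 RPKM without BV and 3714 and 3434 with it, a 1.53-fold rise (0.61, SE 0.23, adjusted p = 0.0359, limma). The libraries did not overlap, but the PSBX call was lost when any 1 of the 4 was left out (0.50 to 0.72). It held without the hmox1 pair lacking BV (adjusted p = 0.00238, limma) and in a fit of the compared groups alone (adjusted p = 0.0109).

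PSB28 went the other way in 4A+. Its level was 398 and 404 RPKM without BV and 324 and 314 with it, or 0.795 of the level without BV (-0.33, SE 0.06, adjusted p = 7.93e-05, limma). Both BV libraries were below both others. Of all genes tested 32.1% rose with BV in 4A+ and 27.4% fell, and the median difference was 0.61 for the 5 genes beside 0.03 over all genes. With median-ratio scaling the shares were 30.4% and 31.6%, and all 5 calls and directions held, although PSBX stood at the threshold (adjusted p = 0.04999, limma).

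In hmox1 the response to BV was of the same direction for PSBP1, PSBR and PSB28 and was not for PSB27. PSBP1 was at 1977 and 1796 RPKM without BV and 2562 and 2429 with it, a 1.32-fold rise (0.40, SE 0.05, adjusted p = 1.02e-06, limma). PSB28 was at 596 and 519.6 RPKM without BV and 412 and 385 with it, or 0.714 of the level without BV (-0.48, SE 0.06, adjusted p = 1.00e-06, limma). Neither gene's groups overlapped. Without either hmox1 library lacking BV the differences were 0.34 to 0.47 for PSBP1 and -0.58 to -0.38 for PSB28.

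The other 3 genes depended on single libraries of that loose pair. PSBR was at 5055 and 3821 RPKM without BV and 5382 and 5413 with it (0.30, SE 0.08, adjusted p = 0.00573, limma). Its difference was 0.09 without the second of the libraries lacking BV, and it was not called in a fit of hmox1 alone (adjusted p = 0.0698, limma). PSB27 was at 361 and 321 RPKM without BV and 319.6 and 300.4 with it (-0.13, SE 0.06, adjusted p = 0.0461, limma). Its difference was -0.05 without the first library lacking BV. The PSB27 call was lost with median-ratio scaling (-0.01, adjusted p = 0.870, limma), without a filter on low values (adjusted p = 0.0561), with weights per group (adjusted p = 0.162) and with quantile normalization (adjusted p = 0.127). It was also lost without BV replicate 2. PSBX was at 3929 and 2191 RPKM without BV and 2778 and 3356 with it, so that the BV libraries lay between the others (0.06, SE 0.23, adjusted p = 0.846, limma). Its difference was 0.48 without the first library lacking BV and -0.36 without the second. In hmox1 20.5% of all genes rose with BV and 37.7% fell, or 26.5% and 29.1% with median-ratio scaling, and the median difference was 0.06 for the 5 genes beside -0.11 over all genes.

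The difference between the 2 BV responses was tested directly. For PSB27 the response in hmox1 was lower than in 4A+ by 0.91 (SE 0.08, adjusted p = 5.95e-08, limma), with a lower value in 4.03% of all genes. This call held under each scaling and with weights per group, and the difference kept its direction without any 1 of the 8 libraries. PSBP1 also rose less in hmox1, with a difference of -0.28 (SE 0.07, adjusted p = 0.00411, limma), but not with median-ratio scaling (-0.11, adjusted p = 0.327). In all, 8.04% of genes responded more upward in hmox1 and 25.5% more downward, or 16% and 16.4% with median-ratio scaling. Not called were PSBR (-0.22, 95% interval -0.47 to 0.03), PSBX (-0.56, -1.26 to 0.15) and PSB28 (-0.15, -0.32 to 0.02). Without hmox1 no BV replicate 2, PSBR was at -0.42, PSBX at -0.98 and PSB28 at -0.25. Without replicate 1 of that pair, PSBR was at -0.02, PSBX at -0.13 and PSB28 at -0.05, so these 3 differences rest on single libraries. Either omission leaves that group 1 library and no replicate spread of its own, so no p-value is given.

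**Figure D3:**
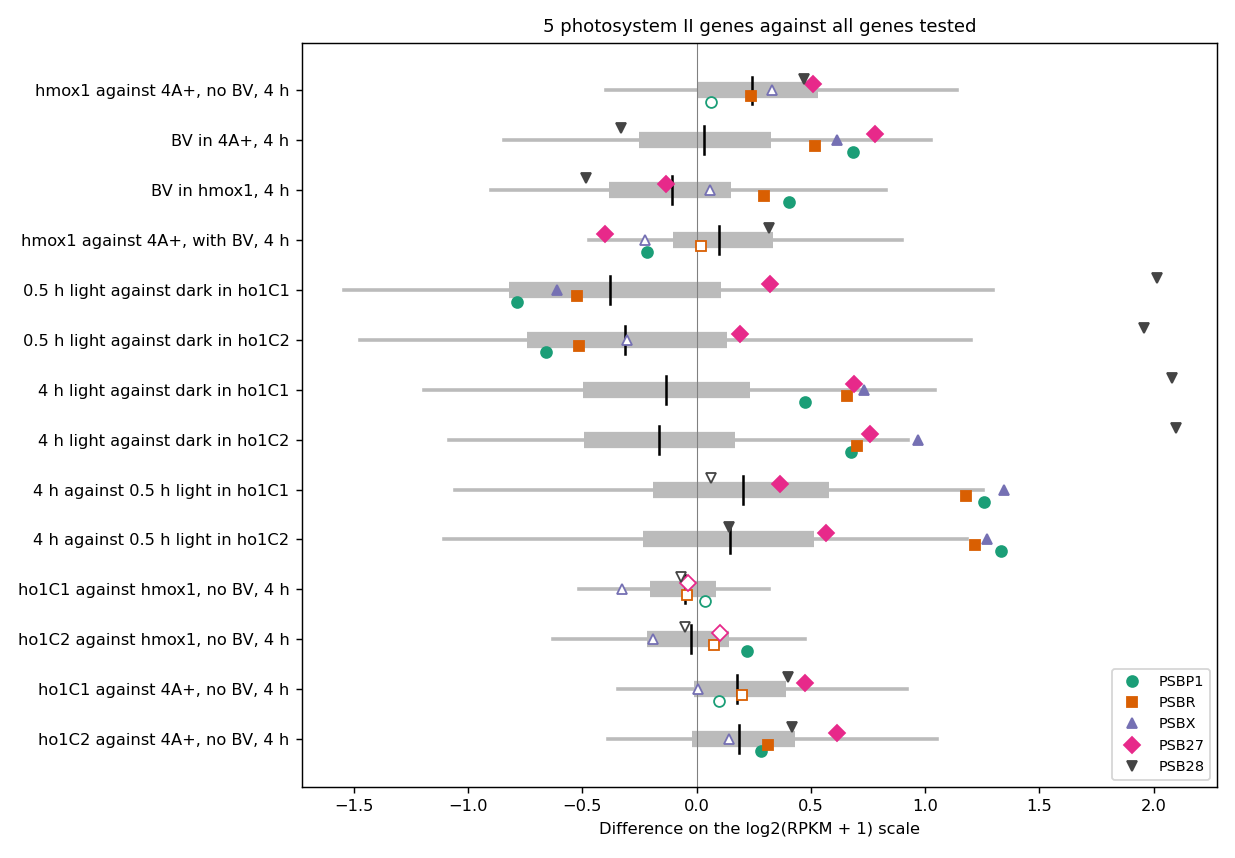
Difference on the log2(RPKM + 1) scale (horizontal axis) of the 5 genes in the 14 comparisons of 2 groups, with filled symbols for a limma adjusted p under 0.05 and open symbols otherwise. Thick grey bars hold the middle 50% of all 13871 genes tested, thin bars reach from the 5% to the 95% point, and black ticks are medians. PSB28 lies beyond the thin bar for light against dark and on the other side of 0 from PSBP1 for BV.

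After 4 h of light without BV, both assembly factors were higher in hmox1 than in 4A+. PSB27 was at 361 and 321 RPKM in hmox1 against 237 and 240.3 in 4A+, 1.43-fold higher (0.51, SE 0.06, adjusted p = 3.13e-07, limma). PSB28 was at 596 and 519.6 RPKM in hmox1 against 398 and 404 in 4A+, 1.39-fold higher (0.47, SE 0.06, adjusted p = 1.38e-06, limma). The groups did not overlap for either gene. PSBR also passed the test (0.24, SE 0.08, adjusted p = 0.0188, limma), though its lower hmox1 library lay within the 4A+ range. Without hmox1 replicate 1 its difference was 0.04. The PSBR call was lost without 4A+ replicate 2 and in a fit of these groups alone (adjusted p = 0.137, limma). PSBP1 was at 0.06 (95% interval -0.04 to 0.16, adjusted p = 0.274, limma) and PSBX at 0.33 (-0.17 to 0.83, adjusted p = 0.220).

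Most genes had higher RPKM values in hmox1, so these differences need that background. Of all genes 53.5% were higher and 11.8% lower, and the median difference over all genes was 0.24 beside 0.33 for the 5 genes. Median-ratio scaling moved the median of all genes by -0.25 and gave 30.3% higher and 30.6% lower. With it PSB27 remained higher in hmox1 (0.17, adjusted p = 0.0202, limma), PSB28 was not called (0.13, adjusted p = 0.0966), and PSBP1 was lower (-0.28, adjusted p = 0.000344). PSBR and PSBX were then at -0.10 (adjusted p = 0.360, limma) and -0.01 (adjusted p = 0.968). Quantile normalization instead put PSBP1 higher in hmox1 (0.33, adjusted p = 8.05e-05, limma), so the direction of PSBP1 between these strains depends on the scaling. Without hmox1 replicate 2, which leaves that group 1 library, PSBP1 was at 0.13 and PSBX at 0.75. Leaving out replicate 1 instead put PSBX at -0.09.

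With BV in both strains, PSB27 and PSB28 lay on opposite sides. PSB27 was lower in hmox1, at 319.6 and 300.4 RPKM against 412 and 407 in 4A+, or 0.756 of the wild-type level (-0.40, SE 0.06, adjusted p = 8.79e-06, limma). PSBP1 was lower too, at 0.860 of that level (-0.22, SE 0.05, adjusted p = 0.00108, limma). PSB28 was 1.25-fold higher in hmox1 (0.32, SE 0.06, adjusted p = 0.000165, limma), but this was not called with median-ratio scaling (0.15, adjusted p = 0.0638). The libraries of the strains did not overlap for PSB27, PSBP1, PSB28 or PSBX, and PSBX was not called. This is a description, since its share over all genes was not computed. PSBR was at 0.02 (95% interval -0.16 to 0.19, adjusted p = 0.875, limma) and PSBX at -0.23 (-0.72 to 0.27, adjusted p = 0.437). Over all genes 34.9% were higher in hmox1 and 15% lower, or 24.1% and 27.4% with median-ratio scaling, and the medians were 0.10 for all genes and -0.22 for the 5.

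By RPKM, the complemented lines at 4 h without BV were nearer in level to hmox1 than to 4A+ for all but PSBX. The median over all genes was nearer too. It was -0.05 in ho1C1 and -0.02 in ho1C2 against hmox1, beside 0.18 in both against 4A+. With median-ratio scaling these medians were 0.007 and 0.005 against hmox1, and -0.026 and -0.050 against 4A+. Against hmox1, none of the 5 genes was called in ho1C1, where 8.15% of all genes were higher and 19.6% lower (limma). The lowest unadjusted p of the 5 was 0.178, for PSBX (limma). The differences were 0.04 for PSBP1 (95% interval -0.06 to 0.14), -0.04 for PSBR (-0.22 to 0.14), -0.32 for PSBX (-0.82 to 0.17), -0.04 for PSB27 (-0.16 to 0.08) and -0.07 for PSB28 (-0.19 to 0.05). Without hmox1 replicate 2, PSBR was at -0.24 and PSBX at -0.75 in ho1C1, and without replicate 1 they were at 0.16 and 0.10. In ho1C2 PSBP1 alone was called, 1.17-fold higher than in hmox1 (0.22, SE 0.05, adjusted p = 0.00137, limma), where 16.1% of all genes were higher and 22.9% lower. That call was lost with quantile normalization (0.12, adjusted p = 0.0863, limma) and in a fit of the 2 groups alone (adjusted p = 0.0979). In ho1C2 PSBR moved to 0.28 and PSBX to 0.23 without hmox1 replicate 1, and to -0.13 and -0.61 without replicate 2.

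Against 4A+, PSB27 was 1.39-fold higher in ho1C1 (0.47, SE 0.06, adjusted p = 1.43e-06, limma) and 1.53-fold higher in ho1C2 (0.61, SE 0.06, adjusted p = 3.76e-08). PSB28 was 1.32-fold higher in ho1C1 (0.40, SE 0.06, adjusted p = 1.497e-05, limma) and 1.34-fold higher in ho1C2 (0.42, SE 0.06, adjusted p = 6.93e-06). With median-ratio scaling PSB27 remained called in both lines (0.21 and 0.31), while PSB28 did not (0.14 and 0.12, adjusted p = 0.0908 and 0.132, limma). In ho1C2 PSBP1 and PSBR were also higher, by 0.28 and 0.31 (adjusted p = 7.74e-05 and 0.00410, limma), and both calls were lost with that scaling (-0.02 and 0.01). In ho1C1 PSBP1 and PSBR were not called (0.10 and 0.20, adjusted p = 0.0924 and 0.0539, limma), nor was PSBX in either line (0.00 and 0.14). PSBP1 and PSBR in ho1C1 were called with weights per group (adjusted p = 0.0353 and 0.00187, limma) and with quantile normalization (adjusted p = 0.00151 and 0.0150), and with median-ratio scaling PSBP1 was lower than in 4A+ (-0.16, adjusted p = 0.0203). In ho1C1 43.5% of all tested genes lay above 4A+ and 9.76% below, or 24.1% and 27.2% by median-ratio scaling. In ho1C2 45.1% lay above and 11.4% below, or 24.8% and 31.4% by that scaling. These comparisons and the one of hmox1 with 4A+ share libraries, so they are not independent of each other.

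Ratios between 2 genes of the same library do not depend on a scaling by 1 factor per library, such as median-ratio scaling, though quantile normalization can change them. PSB28 over PSB27 was 0.585 and 0.630 in dark ho1C1 and 0.536 and 0.625 in dark ho1C2. At 0.5 h it was 1.97 and 1.98 in ho1C1 and 1.94 and 2.02 in ho1C2, and at 4 h 1.55 and 1.65, and 1.44 and 1.502. Dark libraries thus held more PSB27 than PSB28 per length, and lit libraries of these lines held more PSB28. In 4A+ the ratio was 1.68 in both libraries without BV and 0.786 and 0.771 with it, so the order of the 2 genes was turned. In hmox1 it was 1.65 and 1.62 without BV and 1.29 and 1.28 with it, which lowered the ratio without turning the order.

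PSB28 over PSBP1 spanned the widest range. It was 0.0873 and 0.0917 in dark ho1C1, 0.600 and 0.658 at 0.5 h, and 0.270 and 0.278 at 4 h. In ho1C2 it went from 0.0861 and 0.0954 to 0.536 and 0.582 and then to 0.244 and 0.245. The 0.5 h libraries were thus far above both other times. With BV the ratio was 0.110 in both 4A+ libraries, against 0.220 and 0.224 without. In hmox1 it was 0.161 and 0.158 with BV, against 0.301 and 0.289 without. By contrast PSBR over PSBP1 kept to group means between 1.84 in 4A+ with BV and 2.34 in hmox1 without BV.

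**Figure D4:**
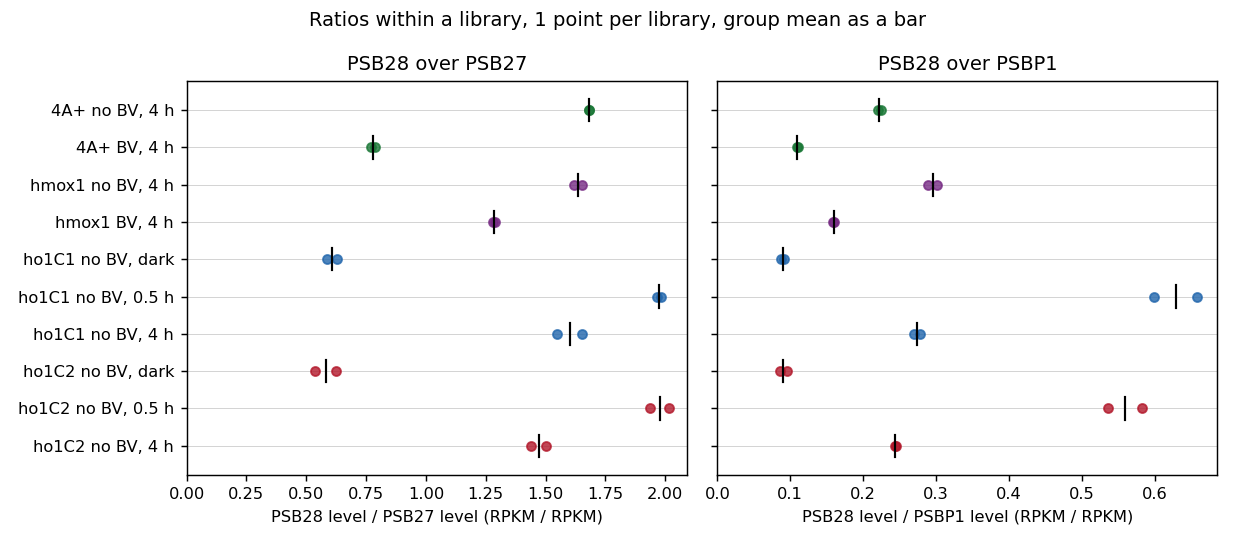
Ratio of PSB28 to PSB27 (left) and of PSB28 to PSBP1 (right), RPKM over RPKM within a library (horizontal axes from 0), in the 10 groups, with 1 point per library and a bar at the group mean. Both ratios were lowest in the dark and highest at 0.5 h of light, and in 4A+ and hmox1 both were lower with BV than without.

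Across the 10 groups the subunits kept nearly one order, while PSB27 and PSB28 each had their own. PSBP1 stood highest in 4A+ with BV (2903 ± 78.2 RPKM; SD, n = 2), followed by hmox1 with BV (2495 ± 94.2) and ho1C2 at 4 h (2198 ± 43.4). Next came ho1C1 at 4 h, hmox1 without BV and 4A+ without BV, at 1935 to 1805 RPKM, where neighbours overlapped. The dark groups of both lines overlapped at 1394 and 1377 RPKM, and the 0.5 h groups were lowest, at 872 ± 24.5 in ho1C2 and 808 ± 35.2 in ho1C1.

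PSBR kept nearly the same order. Its levels in hmox1 with BV (5397 ± 22.1 RPKM; SD, n = 2) and 4A+ with BV (5332 ± 198) overlapped at the top. Those of ho1C2 at 4 h (4634 ± 174), hmox1 without BV (4438 ± 872) and ho1C1 at 4 h (4276 ± 91.9) overlapped with their neighbours too. Below them 4A+ without BV, the dark groups and the 0.5 h groups were each apart, down to 1886 ± 46.8 RPKM in ho1C1 at 0.5 h. For PSBX 4A+ with BV was alone at the top (3574 ± 198 RPKM), and the next 5 groups, from hmox1 with BV (3067 ± 409) down to 4A+ without BV (2342 ± 253), overlapped from one to the next. The dark groups overlapped at 1411 and 1319 RPKM, above the 0.5 h groups at 1066 and 924.

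For PSB27 the order began with 4A+ with BV (409.8 ± 3.59 RPKM; SD, n = 2) and ho1C2 at 4 h (365 ± 2.58). It went on through hmox1 without BV (341 ± 28.1) and ho1C1 at 4 h (331 ± 11.3), which overlapped. Then came hmox1 with BV (310.0 ± 13.6), the 0.5 h groups (257 and 246) and 4A+ without BV (238 ± 2.67). The dark groups were lowest and overlapped (216 and 205). PSB28 was highest in hmox1 without BV (558 ± 53.8), ho1C2 at 4 h (537 ± 12.3) and ho1C1 at 4 h (530.1 ± 6.47), which overlapped from one to the next, and then in the 0.5 h groups (507 and 487). Below them 4A+ without BV (401 ± 4.55) and hmox1 with BV (398 ± 19.0) overlapped, followed by 4A+ with BV (319 ± 7.21) and, lowest, the dark groups (125 in both).

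Correlations over the 10 group means, which share the library scaling, are given as a description. Among the subunits Pearson's r of log2 levels was 0.98 for PSBP1 with PSBR, 0.98 for PSBR with PSBX and 0.96 for PSBP1 with PSBX. Only 0.0577% of all tested genes were closer to PSBP1 than PSBR was. PSB27 correlated with the subunits at 0.69 to 0.76 and with PSB28 at 0.61. PSB28 correlated with PSBP1 at 0.07, with PSBR at 0.20 and with PSBX at 0.27, and 48.7% of all genes were closer to PSBP1 than PSB28 was.

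The genes with the highest values of the same r over 10 group means are given, and this choice depends on the measure. For PSBP1 they were g8723 (r = 0.998, mean level 936 RPKM over all libraries), g9830 (0.996, 2357 RPKM) and Cre17.g720250 (0.996, 2103 RPKM). Each was highest in 4A+ with BV and lowest in ho1C1 at 0.5 h, as PSBP1 was. For PSBR they were Cre13.g602450 (0.992, 24.4 RPKM), Cre16.g690130 (0.991, 34.3 RPKM) and g6631 (0.989, 2014 RPKM). PSBX shared Cre16.g690130 as its nearest gene (0.99), followed by Cre13.g608000 (0.988, 46.3 RPKM) and Cre03.g202950 (0.986, 52.3 RPKM). By Spearman's rho over the same means the genes ranked, in the order given, 2, 14 and 45 for PSBP1. They ranked 9, 28 and 4 for PSBR, and 4, 4 and 17 for PSBX. By Pearson's r over the 20 libraries all ranked 5 or better.

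PSB27 had no gene as near. Its closest were g11700 (r = 0.94, 555 RPKM), Cre16.g660000 (0.92, 35.6 RPKM) and Cre07.g344500 (0.92, 1.503 RPKM). For PSB28 they were Cre12.g500750 (0.991, 198 RPKM), g16366 (0.988, 9.67 RPKM) and g2944 (0.987, 31.3 RPKM), all lowest in dark ho1C1. By Spearman's rho the genes ranked, in the order given, 22, 49 and 2 for PSB27 and 1, 48 and 111 for PSB28. In dark ho1C1 Cre07.g344500 was at 0.24 RPKM and g16366 at 0.16, near the floor. The level of Cre12.g500750 went from 46.8 RPKM there to 312 in hmox1 without BV, the group where PSB28 was highest as well.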

How the data were processed

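Single-end 100-base reads of 20 libraries were sequenced, per the labels' protocols. STAR (2.3.0) and HTSeq are named in the submitters' processing notes, without a role for either. Genome build, annotation, strand use and the handling of shared reads are not stated in the labels or headers. The authors' deposited table was read as RPKM because its values behave so; its unit is nowhere named. Since RPKM is relative to a library's total, a change in a few abundant transcripts shifts all others.

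The log2(RPKM + 1) values of all 20 libraries were fitted with limma 3.58.1 (R 4.3.3), trend and robust moderation and 1 mean per group, which left 10 residual degrees of freedom. IDs had to reach 1 RPKM in 2 libraries, and 3866 did not. The values are not counts, so the test planned for normalized values was used. It was tested on simulated data. There were 17 comparisons, of which 3 were differences of responses. Alternatives changed pseudocount, filter, scaling, moderation, weights, block and libraries. Relative depth came from 2330 low values of 221 genes, of which 99.1% were whole multiples of a step within 0.005 plus 2%, against 58.5% with shuffled factors. The factors were fitted to these same values, so this contrast is not an independent check of the depths.

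Members, lists and the naming rule (the members and, for each, the 3 IDs of highest r) were chosen with earlier results of these data known. A RefSeq v5.5 gene table matched 11713 IDs and held 0 symbols beyond locus tags, so pathway lists by product name and HMOX1 are not analysed here. In that table the 5 members overlapped no other gene model. Replicates are labelled biological, with no more said of their cultures, so p-values measure only the spread between these samples, which may be technical in part.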

Additional observations from a re-analysis of the deposited data

Results flagged for a closer look

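The response to BV after 4 h of light differed between hmox1 and 4A+ for 2 of the 5 photosystem II genes, by a test of the difference itself. Over all genes tested, the response was lower in hmox1 for 25.5% and higher for 8.04%. For PSB27 the response was lower in hmox1 by 0.91 on the log2 scale (-0.91, SE 0.08, adjusted p = 5.95e-08, limma). Both BV libraries of 4A+ were above both without BV. Those of hmox1 were below both without it, but only narrowly, with 319.6 against 320.9 RPKM for the nearest libraries. The fall of PSB27 within hmox1 (-0.13, adjusted p = 0.0461, limma) lost its call in several settings, median-ratio scaling among them. For PSBP1 the response was smaller in hmox1 (-0.28, SE 0.07, adjusted p = 0.00411, limma), with a rise in both strains. The PSBP1 call was lost with median-ratio scaling (-0.11, adjusted p = 0.327, limma), under which 1 of the 5 genes, PSB27, was called. The hmox1 pair without BV enters both values. Its part was read by leaving out each of its libraries, which gave -0.83 and -0.997 for PSB27 and -0.21 and -0.35 for PSBP1. No cause was tested.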

How the results depend on the processing

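Of 1140 member values under alternative settings, 1028 kept direction and call, 43 changed direction (21 of them with 1 library left out, 17 with median-ratio factors and 5 with quantile normalization), 40 lost and 29 gained a call. A pseudocount of 0.1 and moderation without the robust option changed none of the 85 values each. The causes were not tested. Absolute depth is unknown, and with 2 libraries per group a difference the size of the PSBX replicate spread could not be resolved.

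With median-ratio factors, directions turned for PSBP1 in hmox1 (-0.28), ho1C1 (-0.16) and ho1C2 (-0.017) against 4A+. They turned for PSBR in hmox1 without (-0.10) and with BV (-0.15) and in ho1C1 (-0.066) against 4A+, in ho1C1 against hmox1 (0.037) and in the difference of 0.5 h responses (-0.077). They turned for PSBX in hmox1 (-0.012), ho1C1 (-0.26) and ho1C2 (-0.16) against 4A+ and at 0.5 h in ho1C2 (0.10). They turned for PSB27 in ho1C1 against hmox1 (0.039), and for PSB28 from 0.5 h to 4 h in ho1C1 (-0.24) and ho1C2 (-0.071), in ho1C1 against hmox1 (0.0074) and in the difference of BV responses (0.021). The members called became 3 at 0.5 h in ho1C1, 1 in ho1C2 against 4A+ and 1 in the difference of BV responses. Of 13714 genes tested with that scaling, 10580, 7708 and 4451 were called in these comparisons. With quantile normalization PSB28 turned from 0.5 h to 4 h (-0.070 in ho1C1, -0.033 in ho1C2) and in the difference of 4 h responses (-0.026), and PSBP1 (-0.080) and PSB27 (0.0060) in ho1C1 against hmox1. There 4 members were called in ho1C1 against 4A+, beside 6022 genes in all.

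In ho1C1 against 4A+, 4 members were also called with weights per group, with the replicate block and in the fit of these groups alone. The same held with hmox1 without BV left out of the fit, an alternative chosen after seeing the data. All genes called there were 8136, 7632, 7176 and 8050 in that order, against 7392 of 13871 in the main fit. In these 4 settings 1 member was called in the difference of 4 h responses, beside 1014, 782, 892 and 997 genes in all. Of all genes, weights per group called 1671 in ho1C1 and 3032 in ho1C2 against hmox1, and 691 and 1014 in the differences of 0.5 h and 4 h responses. Fits of the compared groups alone called 1212 in ho1C1 and 2566 in ho1C2 against hmox1 and 502 in the difference of 0.5 h responses. Among the members, those fits called 2 for BV in hmox1, beside 5817 genes in all, and 0 in ho1C2 against hmox1. With hmox1 without BV left out, 476 and 997 genes were called in the differences of responses. The main counts were 3849, 5401, 237 and 656.

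The labels do not say whether replicate numbers pair samples, and the main fit has no term for them. Over 45 pairs of groups the deviations of same-numbered libraries correlated at -0.0979 to 0.330, with a median of 0.0788. They were above 0.1 in 16 pairs and below -0.1 in 0. Each of the 10 groups had a mean correlation above 0 with the others (lowest 0.0342). The replicate block gave the calls above (PSBP1 and PSBR in ho1C1 against 4A+, adjusted p = 0.0450 and 0.0455, limma, and PSBP1 in the difference of 4 h responses, adjusted p = 0.0475) and lost none. Over all genes it called more in every comparison, such as 9256 against 9050 in hmox1 against 4A+ without BV.

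Leaving out 1 library leaves its group without a replicate spread of its own, so calls in those fits are a description only. All genes called ranged over 2474 to 4915 in ho1C1 against hmox1, 53 to 137 in the difference of 0.5 h responses and 376 to 507 in that of 4 h. Differences that turned ranged, for hmox1 against 4A+, over -0.0075 to 0.13 for PSBP1 and -0.092 to 0.75 for PSBX without BV, and -0.020 to 0.056 for PSBR with BV. For PSBX they ranged over -0.11 to 0.12 in ho1C1 and -0.0021 to 0.28 in ho1C2 against 4A+, and -0.36 to 0.48 for BV in hmox1. In ho1C1 against hmox1 they ranged over -0.031 to 0.11 for PSBP1, -0.24 to 0.16 for PSBR, -0.75 to 0.097 for PSBX, -0.12 to 0.046 for PSB27 and -0.17 to 0.029 for PSB28. In ho1C2 against hmox1 they ranged over -0.13 to 0.28 for PSBR, -0.61 to 0.23 for PSBX and -0.15 to 0.047 for PSB28. The response differences ranged over -0.017 to 0.034 for PSBR at 0.5 h and -0.039 to 0.073 for PSB28 at 4 h.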
